A study of Botryllus schlosseri with 78 samples.

Results

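The family of sequences named FcoR in Botryllus schlosseri, a colonial tunicate, had 69 transcripts in the table of values, and 39 of these are described here. They are the members left after 30 others were set apart: those transcripts found in nearly all colonies, and those that marked a genotype, a tissue or blood. The set was thus selected on measured values, namely the level of each FcoR transcript, the number of colonies holding it and its pattern over sample classes. Those same quantities are therefore given below as a description, with no test. The whole table had 137 transcripts, which besides FcoR included 45 named FF and 23 others, for proteins of signalling pathways and for genes of the Fuhc locus.

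Colonies of this species grow as genetically identical individuals in a shared tunic, joined by blood vessels that end in blind tips called ampullae. When neighbouring colonies touch, their ampullae either fuse, so that blood and stem cells pass between them, or reject each other in a local inflammatory reaction. The outcome follows the highly polymorphic Fuhc locus, and receptors of the fester family on the cells take part in reading it. The series record describes FcoR as sequences found by searches that began with fester and uncle fester. The role of each single FcoR transcript is not annotated in the sources used here, and none of the 39 names matched a symbol of the RefSeq annotation, so no positions, sequences or functions are given.

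Values came from 77 libraries of poly-A RNA. Ampullae gave 16 libraries: 3 for each of SB825-FX, SB825-FEA and SB825-FDA, 4 for SMGO, of which a pair named technical was averaged, and 3 for SMH. Whole bodies were sampled from 4 genotypes, SKI, SB825, SMH and SMGO, in 3 libraries each. For each of the male genotypes MDR, MADM and M001 there was 1 library at every one of 7 stages of the budding cycle, named A1 to D, or 21 in all. Cells sorted for aldehyde dehydrogenase (ALDH) activity, a gate used for stem cells, gave 1 positive and 1 negative library for each of individuals 1, 2B, 6 and 7. In the library names, individuals 2B and 6 are called winner, and 1 and 7 loser. Cells sorted for integrin alpha-6 (IA6), another marker of such cells, gave 8 positive libraries from individuals 79C, 79G, 81A and 81C, and 4 negative libraries from 81A and 81C. Vascular cells sorted with a reagent called BSA gave 5 libraries, and whole blood gave 1 for each of individuals FL3, FLLC2 and LFC4. No treatment or allele of the Fuhc locus is given for any group. The labels do not say how the SB825 lines relate to each other or to whole-body SB825.

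Each value is read as TPM rescaled between libraries, that is, nearly a share of the 137 transcripts, whose values summed to between 308919 and 1466577 per library. A rise of 1 transcript therefore lowers others. In these bulk samples, fewer cells of a type and less RNA per cell cannot be told apart. Read totals were not used here, so the depth behind a value is not known. As a crude measure of it, the smallest detected value per library ranged from 28.1 to 86.9 in ampullae, from 4.91 to 58.5 in whole bodies and from 75.8 to 207 in ALDH-negative cells. A value of 0 in a shallow library thus says less than in a deep one. Of the 16 names fixed as markers of germline, muscle, vessels, blood cells and the sorting gates, 0 matched a transcript, so the labelled tissues and cells could not be checked. Some libraries stood apart: the BSA libraries SB07-09 and SB10-11 held few transcripts and are left out of the counts below, and the third SMH whole-body library, the only one of that class with no replicate number in its library name, differed from the other SMH libraries in several of the members.

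A transcript was counted as held by a combination of sample class and colony when its value was at least 1 in the majority of the libraries of that combination. There were 26 combinations from 24 named colonies or individuals, since SMGO and SMH were sampled as ampullae and as whole bodies. The SB825 lines and whole-body SB825 were counted as separate names, so there may be fewer independent colonies. Negative fractions of ALDH- and IA6-sorted cells were not counted as combinations, so counts and means of combinations leave them out. The 39 members were held by 1 to 25 combinations, with a median of 12, against a median of 15.5 for the other 30 FcoR transcripts and 6 for the 45 FF transcripts. No member was held by all 26, whereas 7 of the other FcoR transcripts were. By breadth, with limits set after the counts were seen, the members fell into 13 wide ones (18 to 25 combinations), 11 middle ones (9 to 14) and 15 narrow ones (1 to 8). Values were 0 in 1538 of the 3003 cases, or 51.2%, and lay between 0 and 1 in 3 cases, so the limit of 1 decided few of them.

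**Figure D1:**
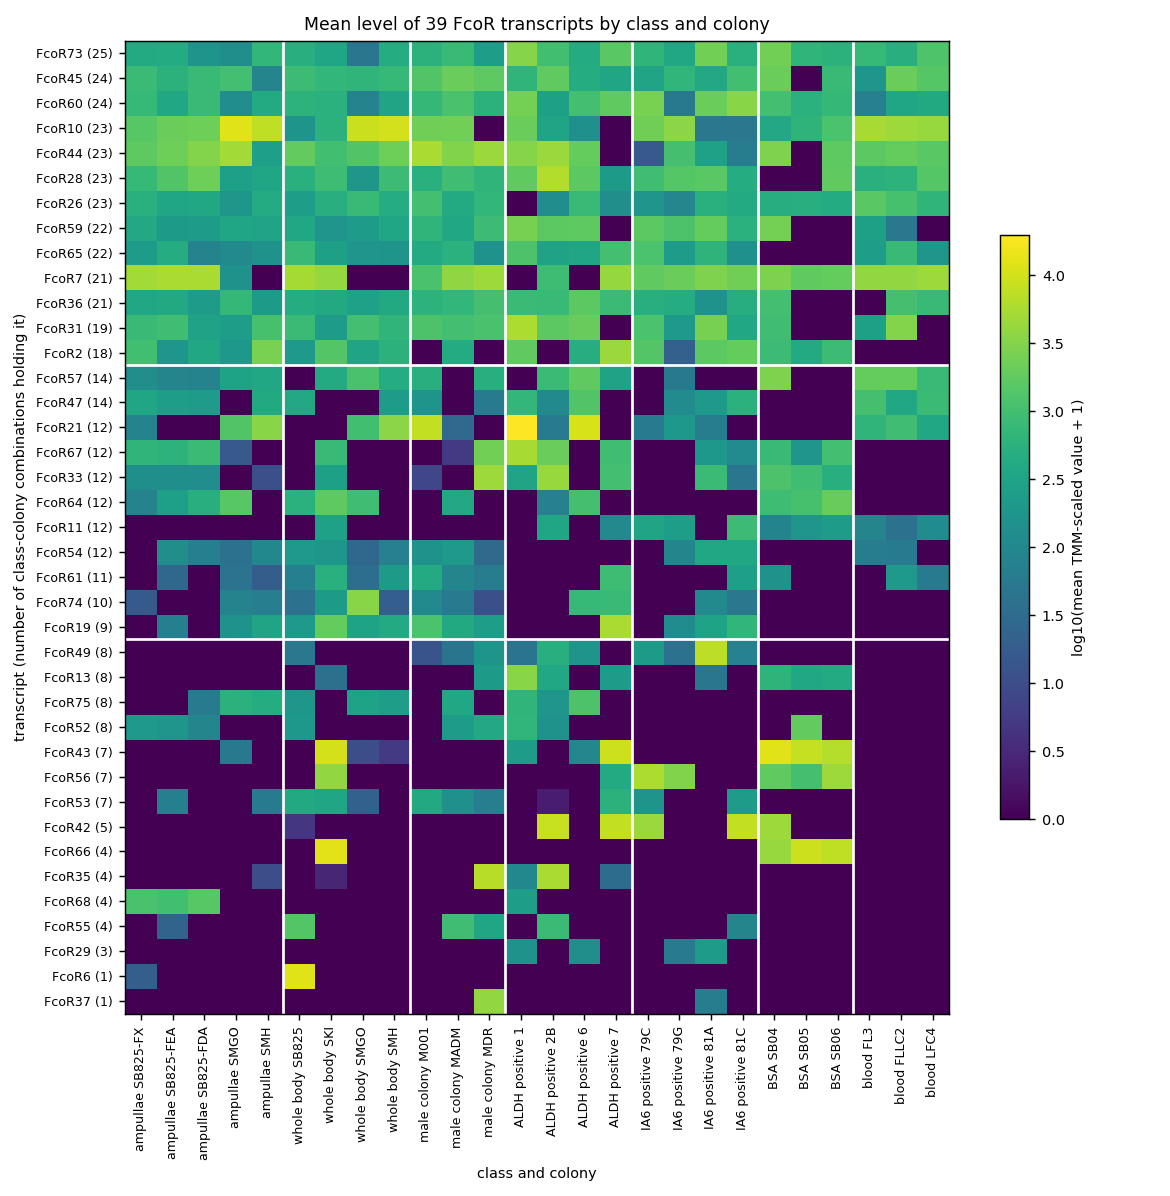
Rows are the 39 FcoR transcripts, ordered by the number of combinations holding them (in brackets), and columns the 26 combinations of sample class and colony; colour is log10 of the mean TMM-scaled value plus 1, and white lines separate classes and the 3 breadth groups. Wide transcripts such as FcoR73, held by 25 combinations, are coloured nearly throughout, while FcoR6 and FcoR37, held by 1 each, show a single bright cell.

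High levels were found in all 3 breadth groups. The median of the highest mean value in any combination was 3964 for narrow, 2852 for middle and 3439 for wide members. A mean above 2000 in some combination was reached by 9 of 15 narrow, 7 of 11 middle and 10 of 13 wide members, 26 of 39 in all. Means above 5000 were reached by 15 members and above 10000 by 5, namely FcoR6, FcoR66, FcoR43, FcoR21 and FcoR10, of which the first 3 are narrow.

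**Figure D2:**
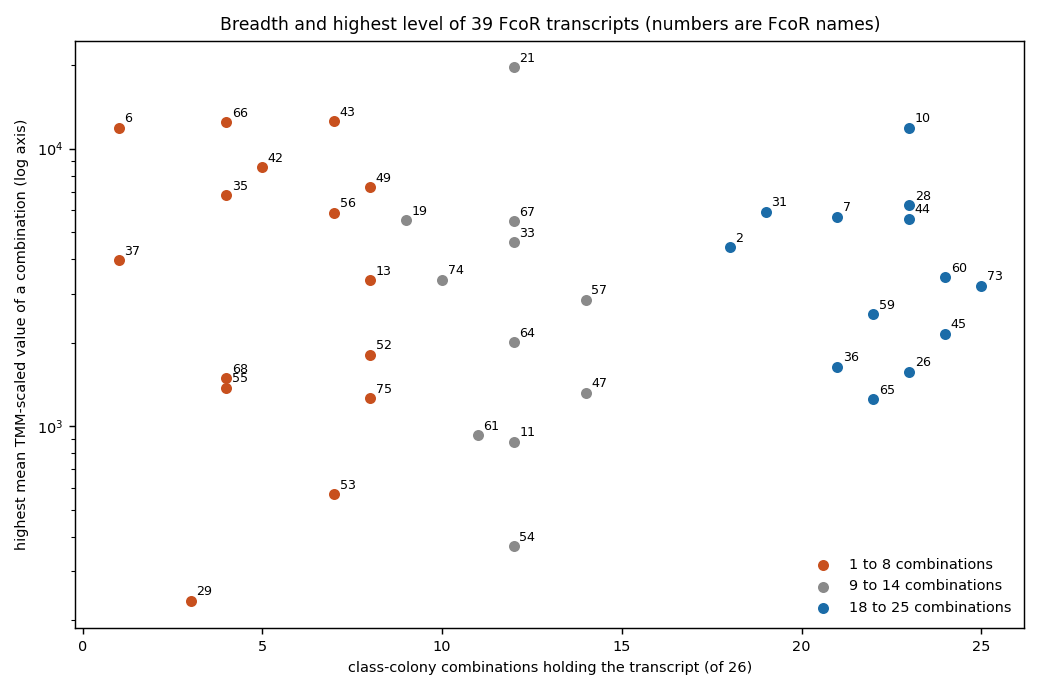
Each point is 1 of the 39 FcoR transcripts, with the number of holding combinations (of 26) on the x axis and its highest mean TMM-scaled value in any combination on a logarithmic y axis; colours mark the breadth groups. Narrow members such as FcoR6, held by 1 combination, reach means as high as FcoR10, held by 23.

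Among the narrow members, several had means above 5000 in a colony that held them and were not detected in most others. FcoR6 was detected once in the 9 ampullae libraries of the SB825 lines, at 56.1 in SB825-FX. In the 3 whole-body libraries of SB825 it had 11304, 14169 and 10201, a mean of 11891 ± 2048 (SD, n = 3), and in all other libraries it was listed at 0. The high level of FcoR6 was thus seen in the whole-body SB825 libraries and not in the ampullae lines whose names begin with SB825. The labels do not say whether those lines share a genotype with whole-body SB825, so tissue and genotype cannot be told apart here. FcoR68 had the opposite distribution. It had 1523, 1077 and 894 in SB825-FX ampullae, 529, 884 and 1514 in SB825-FEA and 1459, 1136 and 1862 in SB825-FDA, and was listed at 0 in all 3 whole-body SB825 libraries. Outside the 3 lines it was seen in both fractions of ALDH individual 1, at 250.2 in positive and 607 in negative cells.

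The male genotype MDR held a pair of narrow members throughout its cycle. FcoR37 ranged from 2777 to 5193 with a median of 4183 over the 7 stages of MDR. It was listed at 0 in all 14 libraries of M001 and MADM, and its other detections were at most 482, in IA6-sorted cells of 81A and 81C. FcoR35 ranged from 5849 to 7762 with a median of 6766 in MDR. Among the ALDH individuals it was high in 2B, with 5562 in positive and 3839 in negative cells, while in individual 7 it had 32.5 in positive and 1196 in negative cells. Elsewhere FcoR35 did not exceed 98.9. Since all 7 MDR libraries carried both transcripts and the other male genotypes carried neither, their presence differed between genotypes and not between stages.

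A further group of narrow members was shared between SKI whole bodies and the BSA-sorted vascular cells. FcoR66 had 13947, 12172 and 11314 in SKI and 4352, 9207 and 7604 in the BSA libraries SB04, SB05 and SB06. Its only other detection was 98.2 in ALDH-negative cells of 2B. FcoR43 had 11843, 9612 and 10002 in SKI and 12569, 8309.6 and 6497 in the same BSA libraries, and was also high in ALDH individual 7, with 9256 in positive and 6662 in negative cells. In all other libraries FcoR43 reached at most 233. FcoR56 had 4052, 4126 and 3614 in SKI and 1770.2, 1070.0 and 4685 in the BSA libraries. It was present in IA6-positive cells too, with 5738 and 6021 in 79C and 1377 and 4701 in 79G, but was listed at 0 in all 8 libraries of 81A and 81C. All 3 transcripts were listed at 0 in SB825 whole bodies and in every male library. Whether the SB colonies used for BSA sorting are related to SKI is not given in the sources used here.

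FcoR42 was either high or not detected, with 1 exception. It had 4669 and 4355 in IA6-positive cells of 79C, and in 81C it had 8986 and 7003 in positive and 8748 and 6074 in negative cells. In ALDH individuals it had 8587 in positive and 5163 in negative cells of 2B, and 7831 in positive and 7829.6 in negative cells of 7. The BSA library SB04 had 4627. Apart from 11.5 in 1 whole-body library of SB825, it was listed at 0 in all others, among them every library of 79G, 81A and ALDH individuals 1 and 6. In each individual sampled in both fractions, FcoR42 was either high in both or at 0 in both.

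**Figure D3:**
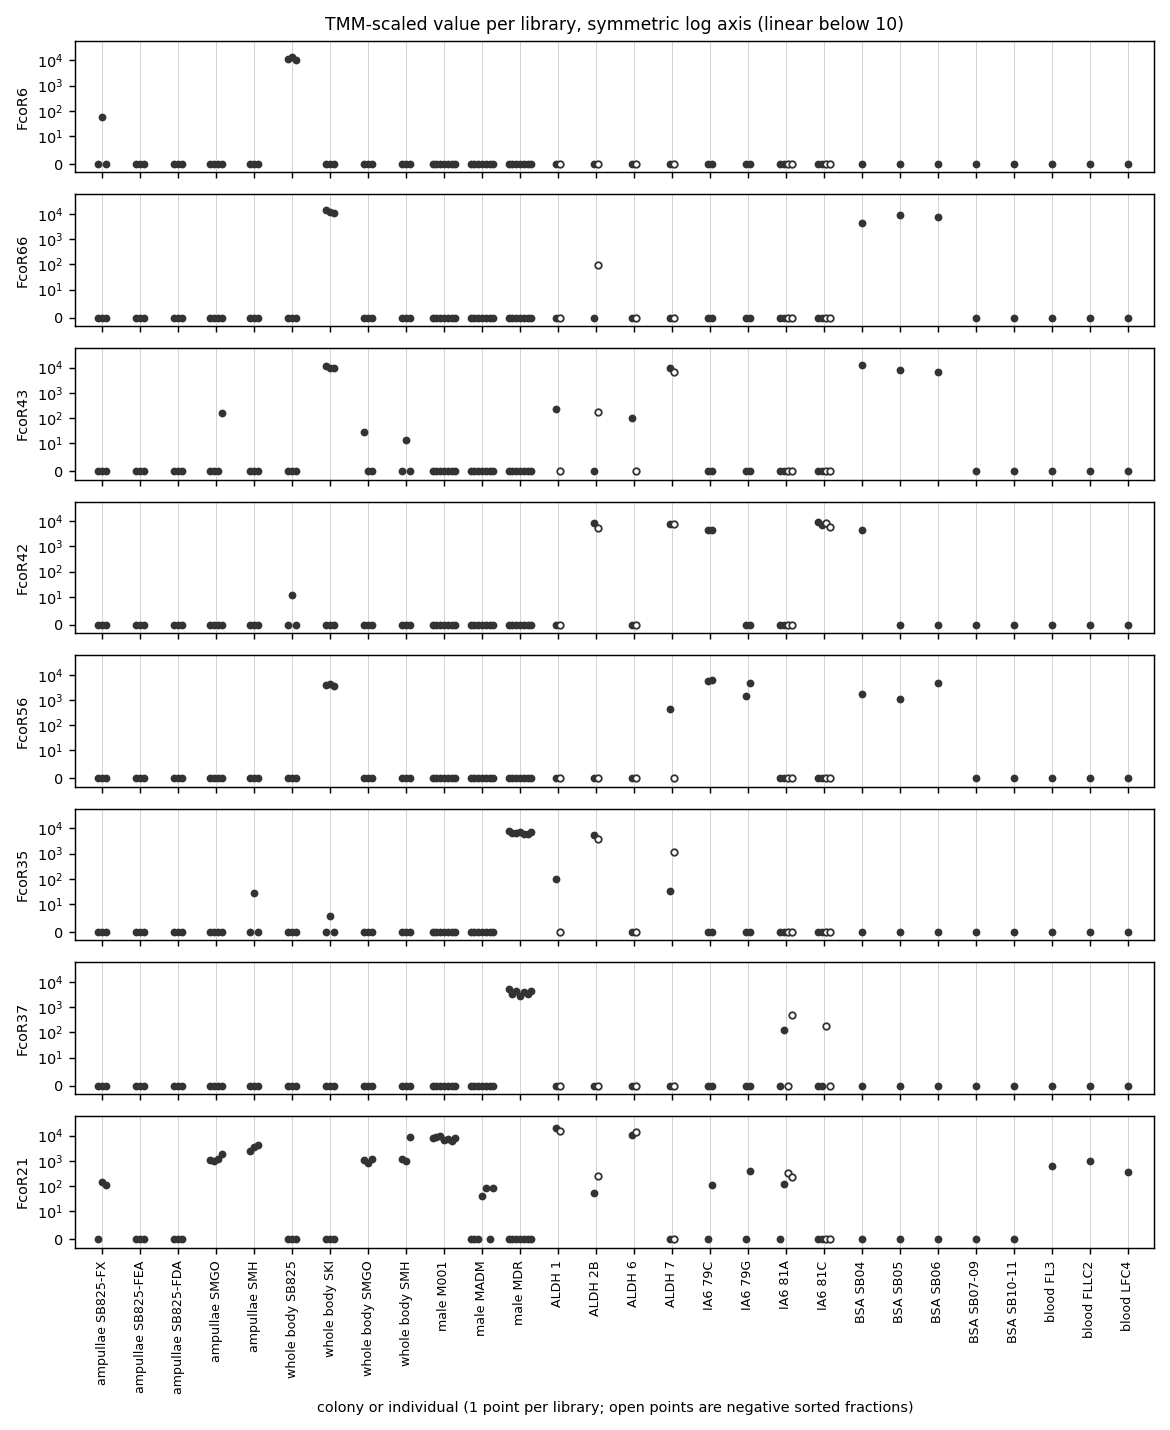
TMM-scaled value per library, on a symmetric log axis that is linear below 10, for 8 members that were high in a few colonies; each point is 1 library, and open points are negative fractions of sorted cells. FcoR6 lies above 10000 in whole-body SB825 libraries, FcoR37 lies between 2777 and 5193 in all 7 MDR libraries, and most other libraries lie at 0.

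FcoR49 was detected in 35 libraries but was high in 1 individual only. In IA6-sorted cells of 81A it had 8990.2 and 5563 in positive and 14514 and 9419 in negative cells. Elsewhere its highest value was 545, in MDR at stage D. FcoR13 was highest in ALDH individual 1, with 3363 in positive and 1786 in negative cells, and had 624, 377 and 425 in BSA libraries and 134 to 344 with a median of 212 in MDR, the only male genotype with it. The remaining narrow members stayed below a mean of 2000. FcoR55 had 1029, 2525 and 568.1 in whole-body SB825, 499.8 to 1605 with a median of 867 in MADM and 138 to 749 with a median of 341 in MDR, and was listed at 0 in M001. FcoR75 and FcoR52 were each held by 8 combinations and FcoR53 by 7, with highest means of 1259.7, 1808 and 567. Outside the combinations, FcoR75 had 1885 in ALDH-negative cells of individual 6. FcoR29 was the least abundant member, seen in 6 libraries of sorted cells and in no other class, with a highest value of 681.

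FcoR21, a middle member held by 12 combinations, had the highest value of any member. It had 19629 in positive and 14524 in negative cells of ALDH individual 1, and 10787 in positive and 13443 in negative cells of individual 6. In individual 2B it had 54.97 in positive and 257 in negative cells, and in individual 7 it was listed at 0 in both. Individuals 1 and 6 thus lay above 10000 in both fractions and 2B and 7 below 300, with no overlap. Among male genotypes it ranged from 6332 to 9536 with a median of 7958 in M001. In MADM it was detected at 3 of 7 stages, at no more than 81.2, and in MDR at none.

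FcoR21 was also present in SMGO and SMH and not in the SKI and SB825 whole bodies. In SMGO it had 1078, 976, 1139.7 and 1818 in ampullae and 1034, 823 and 1136 in whole bodies. In SMH it had 2431, 3595 and 4063 in ampullae and 1183, 1004 and 8394 in whole bodies. The third SMH whole-body library stood far above the other 2, and without it the whole bodies of SMH lay below its ampullae. The same library had 1715 of FcoR2 and 774 of FcoR75, which were listed at 0 in the other 2.

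Likeness of pattern was measured as the Jaccard index of the sets of holding combinations, the shared ones over those of either transcript. It reached 0.8 for 209 pairs of a member with another receptor, but 207 of these joined transcripts both held by at least 19 combinations, which overlap by their breadth. The other 2 pairs were FcoR33 with FcoR67 and FcoR64 with FF14. FcoR33 and FcoR67 were held by exactly the same 12 combinations. These were the 3 SB825 ampullae lines, SKI whole bodies, the male genotype MDR, the 3 BSA libraries, ALDH-positive cells of 1, 2B and 7, and IA6-positive cells of 81A. Library by library, both were detected in 31 of 77 libraries, each was detected alone in 4, and 38 had neither. In MDR, FcoR33 ranged from 3445 to 5412 with a median of 4752 and FcoR67 from 1844 to 3057 with a median of 2489. In SKI, FcoR33 had 294, 271 and 272 and FcoR67 had 812, 665 and 911. FcoR33 was thus the higher of the 2 in MDR and FcoR67 in SKI, and over the 12 combinations each was the higher in 6. Level ratios between transcripts of a combination are in TPM-like units, which are per length.

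FcoR64 shared its 12 combinations with FF14, a transcript of the FF family. Both were present in SMGO ampullae and whole bodies, SB825-FEA and SB825-FDA ampullae, SB825 and SKI whole bodies, MADM, and other combinations. Of the 77 libraries, 33 held both, 41 neither, 3 FF14 alone and 0 FcoR64 alone. Even within SB825-FX ampullae both were found in the first library alone, at 248 for FcoR64 and 11509.9 for FF14. FF14 was always the more abundant of the 2, by a median of 18.7-fold and a range of 9.40- to 150-fold over the 12 combinations. FcoR64 itself had 1565, 1529.5 and 2023 in SKI whole bodies, 1858, 1173, 1109.6 and 1816 in SMGO ampullae and 846, 973 and 1046 in SMGO whole bodies, and it was listed at 0 in both tissues of SMH. Reads shared between transcripts of like sequence could make them appear together. The sequences were not used here, so this was not tested.

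**Figure D4:**
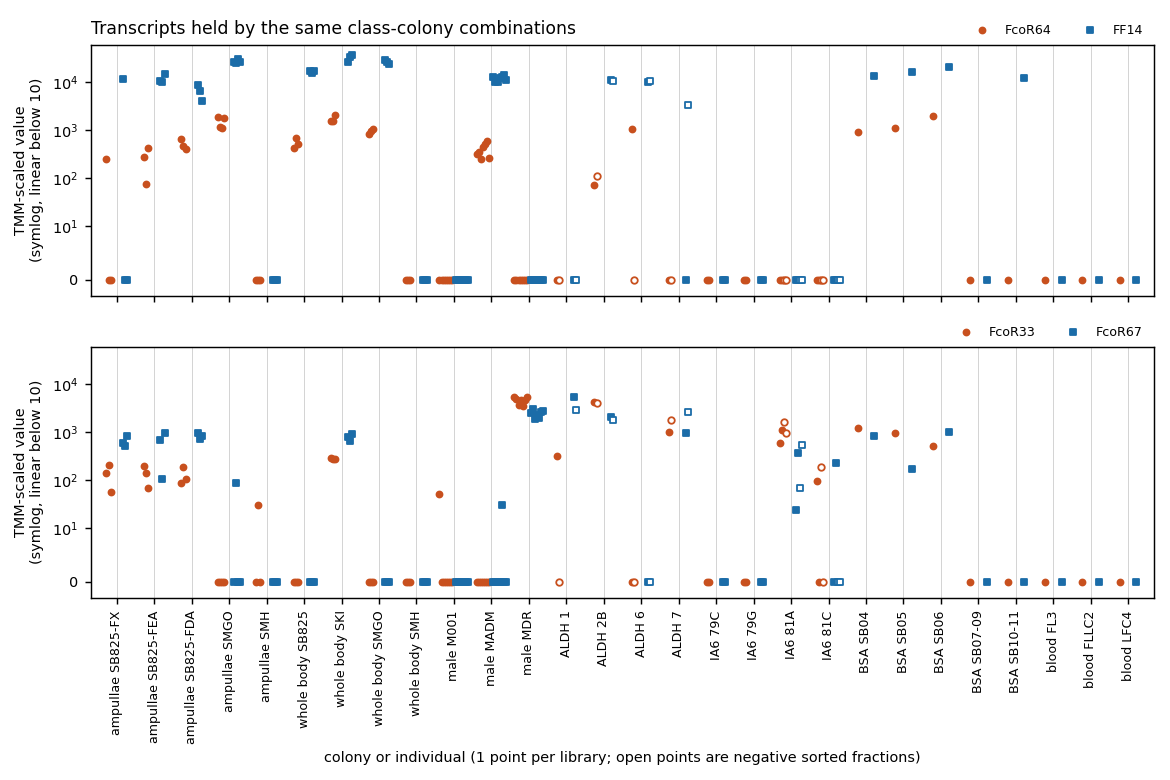
TMM-scaled value per library, on a symmetric log axis that is linear below 10, for FcoR64 with FF14 (top) and FcoR33 with FcoR67 (bottom); each point is 1 library, and open points are negative sorted fractions. FF14 lies above FcoR64 wherever both are detected, and both are at 0 in 41 libraries, while FcoR33 and FcoR67 change order between colonies.

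Other middle members were led by single combinations. FcoR74 had 72.9, 159.8, 130.4 and 0 in SMGO ampullae and 4332, 3037 and 2750.1 in SMGO whole bodies, so that the high level was confined to the whole bodies of that colony among the libraries at hand. Its highest value anywhere else was 814, in ALDH-negative cells of individual 6. FcoR19 had 5530.4 in positive and 650.2 in negative cells of ALDH individual 7 and 2096, 2224 and 1329 in SKI whole bodies. FcoR19 was detected in most stages of all 3 male genotypes, with a median of 1137 in M001, 259 in MADM and 289.8 in MDR. FcoR57 had 1898, 1862 and 803 in blood of FL3, FLLC2 and LFC4, 2852 in the BSA library SB04, and 1777 in positive and 4159 in negative cells of ALDH individual 6. It was listed at 0 in SB825 whole bodies and at all 7 stages of MADM. The other middle members were FcoR47 (14 combinations), FcoR11 and FcoR54 (12 each) and FcoR61 (11), with highest means of 1322, 879.9, 369 and 926. FcoR11 was listed at 0 in every ampullae and male library but was found in all 3 blood and all 3 counted BSA libraries.

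Wide members also differed strongly in level between colonies. FcoR10, the member with the highest mean over the 26 combinations (2881), was held by 23. It had 9821, 12528, 13292 and 11203 in ampullae and 10491, 7371 and 8890.4 in whole bodies of SMGO, and 6787, 8777 and 7206 in ampullae and 11472, 13548 and 4828 in whole bodies of SMH. In SKI and SB825 whole bodies it had 303, 847 and 543 and 242, 154 and 97.4. The lowest SMGO or SMH library was thus above the highest SKI or SB825 one in whole bodies, and both tissues of SMGO and SMH were high. FcoR10 was listed at 0 at all 7 stages of MDR, but ranged from 1113 to 3397 with a median of 2558 in M001 and from 1544 to 3579 with a median of 2409.6 in MADM. Blood had 5417, 4703 and 4305. In IA6-positive cells 79C had 2045 and 2628 and 79G 2395 and 4749.7, against 0 and 103 in 81A and 41.01 and 62.1 in 81C.

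FcoR10 and FcoR7 were both held in blood, in M001 and MADM, in IA6-positive cells of 79C and 79G, and in other combinations. In level over whole bodies, however, FcoR7 had the reverse order, high in SB825 and SKI and at 0 in SMGO and SMH. Ampullae of the SB825 lines held both, with FcoR10 at means of 1492 in SB825-FX, 2128 in SB825-FEA and 2215 in SB825-FDA. FcoR7 had 4664, 4902 and 5471 in SB825-FX ampullae, 4746, 5096 and 7209 in SB825-FEA and 6032, 6114 and 4587 in SB825-FDA. Whole bodies had 4729.7, 4838 and 5740.3 in SB825 and 4311, 3454 and 4799.5 in SKI. In SMGO it had 550.0, 201, 82.2 and 0 in ampullae and was listed at 0 in whole bodies, and in SMH it was listed at 0 in both. Blood was even, with 3895, 3904 and 4640.1. Male colonies ranged from 972 to 1579.7 with a median of 1071 in M001, from 2520.3 to 5448 with a median of 3321 in MADM and from 3634 to 5304 with a median of 5093 in MDR, so M001 lay below both others at every stage. FcoR48, one of the FcoR transcripts outside the 39, was held by all 21 combinations that held FcoR7 and by 1 more, at a median of 5.02 times the level of FcoR7.

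FcoR44 (23 combinations) was high in male colonies, ranging from 4179 to 7441 with a median of 5787 in M001, from 2558 to 3504 with a median of 2926 in MADM and from 3399.8 to 6347 with a median of 3997 in MDR. In SMGO it had 5566, 5238, 5794 and 3978 in ampullae and 341, 1769 and 1944 in whole bodies, and in SMH 419.6, 229.8 and 148 in ampullae and 4093, 2185 and 461 in whole bodies. The groups did not overlap in SMGO, where ampullae were higher, nor in SMH, where ampullae were lower, although the third SMH whole-body library came close to the ampullae. ALDH-negative cells of individual 7 had 4615, while its positive cells were listed at 0.

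FcoR28 (23 combinations) was highest in ALDH individual 2B, with 6255 in positive and 2260.4 in negative cells. Its replicates often disagreed: in IA6-sorted cells of 81A the first replicates of both fractions were at 0, and the second had 3188 in positive and 4294 in negative cells. FcoR31 (19 combinations) had 5924 in ALDH-positive cells of individual 1, and its highest value was 14699, in 1 of the IA6-negative libraries of 81A, whose second library had 2853. All 19 of its combinations also held FcoR59. FcoR2 (18 combinations) had 2999, 3613 and 1308 in SMH ampullae, but 0, 0 and 1715 in SMH whole bodies, where it counted as not held. Without the third of those libraries it was not detected there at all. FcoR2 was also listed at 0 in blood and in all libraries of M001 and MDR, and ranged from 184 to 598 with a median of 456 in MADM.

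The most widely held members were at moderate levels. FcoR73, held by 25 of 26 combinations and missing only from SB825-FDA ampullae by the majority count, had a median mean value of 562 where held. FcoR45 and FcoR60, held by 24 each, had medians of 808 and 658. FcoR45 was even over male colonies, with medians of 1132 in M001, 1859 in MADM and 1659 in MDR. FcoR60 was highest in IA6-sorted cells of 81C, with 2157 and 4722 in positive and 2748 and 5191 in negative cells, and had 0 and 108 in positive cells of 79G. FcoR59 (22 combinations) had 1419 and 1886 in IA6-positive cells of 79C, 1108 and 1376 in 79G, 1749 and 2018 in 81A and 639.9 and 452 in 81C. Its highest values were 2535 in ALDH-positive cells of individual 1 and 2471 in the BSA library SB04. The 12 whole-body libraries lay between 119 and 614 and overlapped those of 81C. FcoR26 (23), FcoR65 (22) and FcoR36 (21) never reached a mean of 2000 in any combination, and their highest were 1574, 1251 and 1638. In the negative fractions, which are not among the combinations, FcoR26 had 3066 in ALDH individual 7 and 3355 and 0 in IA6 individual 81A.

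By sample class, ALDH-positive cells held 23.2 ± 2.63 of the 39 members (SD, n = 4 individuals), whole bodies 22.8 ± 4.03 (n = 4 genotypes), male colonies 21.3 ± 1.53 (n = 3), ampullae 18.2 ± 1.64 (n = 5), the counted BSA libraries 18 ± 3.61 (n = 3), blood 16.3 ± 1.53 (n = 3) and IA6-positive cells 13.8 ± 2.50 (n = 4). These numbers depend on how many libraries a combination had. The majority rule asked for 1 of 1 library in ALDH, BSA and blood combinations, but for both libraries in IA6 ones. Single libraries detected 14 to 23 members in IA6-positive cells, 15 to 18 in blood, 13 to 23 in ampullae and 21 to 27 in ALDH-positive cells. In whole bodies 15 members were held by all 4 genotypes, 11 by 1 genotype and 5 by none. The 11 comprised 7 in SKI (FcoR11, FcoR13, FcoR33, FcoR43, FcoR56, FcoR66 and FcoR67) and 4 in SB825 (FcoR6, FcoR49, FcoR52 and FcoR55), and none in SMGO or SMH. Among male genotypes 12 members were held by all 3 and 10 by 1: 5 by MDR (FcoR13, FcoR33, FcoR35, FcoR37 and FcoR67), 3 by MADM (FcoR2, FcoR64 and FcoR75) and 2 by M001 (FcoR21 and FcoR47). Blood was more uniform, with 13 members held by all 3 individuals, 5 by some and 21 by none, on 1 library each.

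Of the summed FcoR values, the members made up a median of 39.5% in ALDH-positive cells (range 26.3% to 43.2%, 4 individuals) and 14.5% in blood (11.9% to 15.4%, 3 individuals). The medians of the other classes were 23.8% in male colonies (10.3% to 25.1%, 3 genotypes), 22.6% in IA6-positive cells (15.2% to 25.6%, 4 individuals), 22.2% in the counted BSA libraries (20.99% to 35.0%, 3 libraries), 17.6% in ampullae (14.8% to 22.9%, 5 lines or colonies) and 15.9% in whole bodies (14.8% to 17.5%, 4 genotypes). The lowest of all combinations was the male genotype MADM, below every blood library, so the classes overlapped. ALDH-negative libraries had 30.4% to 38.4% and IA6-negative libraries 23.8% to 36.1%, so the high share in ALDH-sorted cells was seen in both fractions.

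In SMGO and in SMH, most of the members held were found in both tissues. In SMGO 15 members were held in both ampullae and whole bodies, 1 in ampullae alone and 6 in whole bodies alone. In SMH 17 were held in both, 2 in ampullae alone and 1 in whole bodies alone. Different colonies shared many members too, since 15 were held by the whole bodies of all 4 genotypes. Whether tissues of a colony share more members than different colonies do was not tested. Replicates of the same combination did not always agree. A member was detected in some but not all replicates in 26.7% of cases in ampullae and 6.41% in whole bodies, against 20.0% and 10.8% for the other FcoR transcripts. Values were then pooled with those of IA6-positive cells and male genotypes, whose libraries are stages and not replicates. Values of members seen in some libraries of a combination only had a median of 248, against 654 for those seen in every library. The disagreement was thus mostly at lower levels, but values seen in some libraries only reached 5079. The lowest detected values were also higher in ampullae than in whole bodies, and the part of depth in this difference was not tested.

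The sets that were set apart came from breadth, genotype, tissue and blood. Libraries of the sorted fractions and stages were among those over which levels and breadth were known, but differences between fractions or between stages did not name any FcoR set. These comparisons were tested with limma on log2(value + 1), adjusted by the Benjamini-Hochberg method over all transcripts tested. In ALDH-positive against ALDH-negative cells of the same 4 individuals, 24 of the 39 members passed the filter on low values and 0 of them passed an adjusted p of 0.05. The background was the same, with 0% of 89 transcripts called. At an unadjusted p under 0.05 there were 1 member and 9 transcripts in all. The median log2 difference was 1.01 over the 24 members, of which 16 were positive, and 0.06 over all 89, of which 47 were positive. FcoR28 had the smallest p of the members. It had 1770.3, 6255, 1648 and 215 in positive cells of individuals 1, 2B, 6 and 7, against 0, 2260.4, 0 and 0 in their negative cells, a log2 difference of 7.68 ± 1.97 (SE, limma adjusted p = 0.176). Positive cells were higher in 4 of 4 individuals. The difference was dominated by the zeros, and the lowest detected value of a library was 1.18 to 62.6 in positive cells and 75.8 to 207 in negative cells. The part of depth in it was not tested. FcoR36 and FcoR45 followed, each at a limma adjusted p of 0.433, with log2 differences of 5.42 ± 2.41 and -1.08 ± 0.49 (SE). FcoR36 had 853, 808, 1638 and 844 in positive and 698, 408, 0 and 0 in negative cells. FcoR45 was lower in positive than in negative cells in all 4 individuals, with 633, 1771, 453 and 329 in positive and 1459, 2191, 976 and 1079 in negative cells.

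In IA6-positive against IA6-negative cells of 81A and 81C, 21 members were tested and 1 passed, FcoR54, which was also the only transcript called of the 77 tested (1.3%). FcoR54 had 385 and 354 in positive cells of 81A and 283 and 425 in positive cells of 81C, and was listed at 0 in all 4 negative libraries. It entered the test through the positive libraries alone, as the filter asked for a value of at least 1 in 4 libraries, so that it had to differ once tested, and it was the only member tested of which this holds. It was higher in the positive cells of both individuals, with a log2 difference of 8.49 ± 0.70 (SE, limma adjusted p = 0.000443). No fold is given against a group at 0, since the fitted difference depends on the pseudocount. The lowest detected values of the negative libraries were 19.2 to 68.9, but these set no limit of detection for a single transcript. FcoR28, for example, had 0 and 4294 in the negative libraries of 81A. The part of depth in the zeros of FcoR54 was not tested. IA6-positive cells of the individuals with no negative fraction were less uniform, with 0 and 0 in 79C and 0 and 185 in 79G. When 1 mean per individual and fraction was used, which leaves 2 individuals, the adjusted p was 0.0652. In other classes FcoR54 was at most 565, in M001 at stage B1. The median log2 difference was 0.96 over the 21 members, of which 14 were positive, and 0.17 over all 77, of which 47 were positive. FcoR49 and FcoR47 came next, at -2.50 ± 1.69 and 2.86 ± 2.03 on the log2 scale (SE), each with a limma adjusted p of 0.742. FcoR47 had 0 and 409 in positive cells of 81A and 916 and 169 in those of 81C, against 0 and 0 and 351 and 65.0 in their negative cells, and the fractions overlapped.

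**Figure D5:**
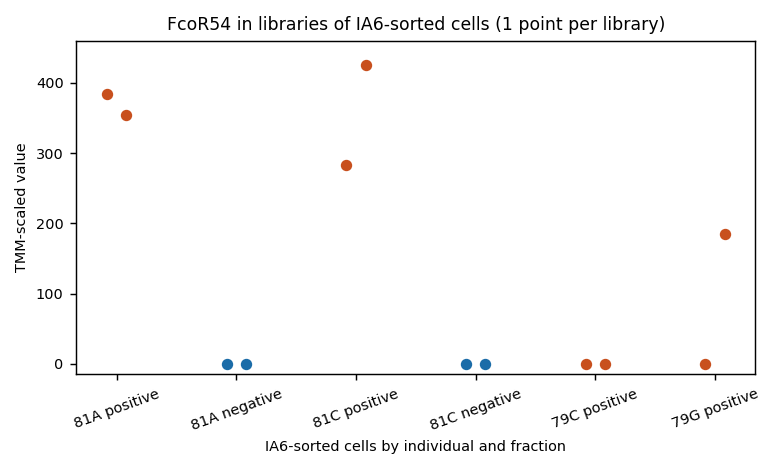
TMM-scaled value of FcoR54 in each library of IA6-sorted cells, with positive fractions in orange and negative fractions in blue. The 4 positive libraries of 81A and 81C lie between 283 and 425, the 4 negative ones at 0, and 3 of the 4 positive libraries of 79C and 79G also at 0.

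Over the 7 stages of the male cycle, with genotype as a block, 31 members were tested and 0 were called, against 1 of 108 transcripts in all (0.926%), which was a signalling protein. No member reached an unadjusted p under 0.05, and 8 transcripts in all did. The median range between the highest and lowest stage means was 2.33 on the log2 scale over the 31 members and 0.68 over all 108. A value of 0 at a stage widens such a range, and many members were at 0 at some stages of a genotype. The part of zeros in this difference was not tested. The smallest p among members were those of FcoR26, FcoR31 and FcoR44, each with a limma adjusted p of 0.712. FcoR26 had 1216, 629 and 1549 at stage B1 of M001, MADM and MDR and 112, 435 and 230.2 at stage C1, its highest and lowest stages, which differed by 2.24 on the log2 scale. All 3 values at B1 lay above those at C1, but the pair of stages was picked for its difference, and FcoR26 was not called over the 7 stages. FcoR31 ranged from 0 to 3169.9 with a median of 479 in M001, from 351 to 1806 with a median of 1047 in MADM and from 0 to 2295 with a median of 959.7 in MDR. Detection over the cycle was counted in each genotype. In MADM 17 members were detected at all 7 stages, 8 at some and 14 at none, against 13, 9 and 17 in M001 and 13, 13 and 13 in MDR. Of the other FcoR transcripts, 4 were detected at some stages only in MADM, 10 in M001 and 6 in MDR. For the FF transcripts these counts were 4, 2 and 3. The order of the genotypes thus differed between the lists.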

How the data were processed

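The submitters' processing notes name Trim Galore, kallisto and RSEM, with no versions, and the extraction protocol in the labels names poly-A libraries and paired-end reads. Signal values as deposited by the authors carry TMM in their table's name, and TMM-scaled TPM is inferred as the unit. Of 158 columns of values, 77 matched a library and 81 were not used. The BSA library SB01-03 was not analysed. Members, lists and breadth groups were chosen with earlier results of these data known.

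Values were handled as log2(value + 1), and tested with limma 3.58.1 in R 4.3.3 (variance trend, Benjamini-Hochberg adjustment over all transcripts tested, threshold 0.05, individual or genotype as block), where at least 1 in as many libraries as the smaller group holds. The code was tested on simulated data. Tables and figures used Python 3.11.15 with pandas 2.3.3, numpy 2.4.6 and matplotlib 3.10.9. Named members are the 10 with the highest mean, those with a combination mean above 2000, and in each test those called or else the 3 of lowest p. Other FcoR transcripts named were picked after their values were seen. The main IA6 fit had individual as its block and did not pair replicate numbers. Their deviations from the group means correlated across fractions at 0.391 in 81A and 0.26 in 81C. An alternative fit therefore paired them through a replicate block, with a limma adjusted p of 0.000779 for FcoR54. As FcoR54 entered the test through its positive libraries alone, it had to differ in this fit too, which gives it no support. The block left the number of calls as it was. Where nothing says that replicates are separate animals, p-values measure the spread between libraries, which may be technical. Read depth is unknown. Alternatives changed the pseudocount, filter, scaling, trend, block, replicates and the definition of a held transcript.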

Additional observations from a re-analysis of the deposited data

Results flagged for a closer look

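All 64 groups of a member and a male genotype were looked at in which the member was detected at the majority of the 7 stages. A library was marked, as a description only, where its gap to the nearest other one exceeded Dixon's critical value. Chance does so in about 1 in 20 groups of normally distributed replicates. The values here came from 7 different stages, unlogged and in some groups with zeros, so their rate by chance is not known. This was so in 8 of the 64 groups (12.5%), in 2 of 65 groups of the other FcoR transcripts (3.08%) and in 23 of 253 over all transcripts (9.09%). In M001, FcoR7 had 1579.69 at stage C2, while its other stages lay between 972 and 1188, and FcoR65 had 1164.09 at B1, with the next highest at 539. In MADM, FcoR28 had 2378.13 at stage A2, with the next highest at 933, and FcoR74 had 236.757 at C1, with the next at 57.4. In MDR, FcoR19 had 867.494 at stage C1, with the next highest at 323, and FcoR49 had 545.023 at D, with the next at 221. FcoR55 had 749.006 at stage A1 of MDR, with the next highest at 398, and FcoR65 had 527.308 at A2, with the next at 191. In each of the 8 groups the library that stood apart was the highest.

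FcoR44 differed between ampullae and whole bodies in opposite directions in SMGO and SMH, with no overlap between tissues in either colony. This held for 1 of the 39 members (2.56%), 0 of the other 30 FcoR transcripts and 1 of all 137 (0.73%), which is FcoR44 itself. Its mean in ampullae less that in whole bodies was 3706.82 in SMGO and -1980.74 in SMH. The difference between the colonies was not tested. The third SMH whole-body library, which stood apart in other members, was the lowest of its group for FcoR44.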

How the results depend on the processing

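With 1 mean per individual and fraction, the IA6 comparison called 0 members and 0 transcripts in all, and FcoR54 had an adjusted p of 0.0652 at a log2 difference of 8.49. With single libraries the counts were 1 and 1. With that exception, FcoR54 passed in all other alternatives run, at log2 differences from 5.20 (pseudocount 10) to 8.61. They reused the libraries of the same 2 individuals, where FcoR54 was detected in positive cells alone, so they give it no separate support. The paired fit, with a replicate block, again called 1 member and 1 transcript. Leaving out each IA6 library in turn gave 1 to 1 member and 1 to 1 transcript. Over male stages, leaving out each genotype gave 0 to 0 members and 0 to 1 transcripts. In the ALDH comparison every alternative gave 0 members and 0 transcripts. When any library sufficed for a combination to hold a transcript, 0 members were held by 1 combination, 23 by at least 13 and 2 by every combination, against 2, 15 and 0. Scaling to the signalling and Fuhc transcripts moved the median log2 difference of all transcripts from 0.06 to 0.26 for ALDH and from 0.17 to 0.00 for IA6, and that of the members from 1.01 to 1.21 and from 0.96 to 0.80. A pair of alternatives was chosen after seeing the data, leaving out the BSA combinations and leaving out the third SMH whole-body library, and neither moved a count of held members by over 1.5 times. Depth is unknown, so a value of 0 cannot be given a limit, and the members' shares depend on which other transcripts the table holds.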

Other observations

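In IA6-sorted cells of 81A, several members were seen in both fractions of 1 replicate number and in neither fraction of the other. FcoR29 had 469 in positive and 681 in negative cells of the second replicate, and was listed at 0 in both fractions of the first. FcoR19 likewise had 625.3 and 238 in positive and negative cells of the second replicate, and in 81C it had 1329 and 240.0, with 0 in the first replicate of both individuals. FcoR37 and FcoR28 behaved in the same way in 81A, as did FcoR36.

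In the sparse BSA libraries left out above, SB07-09 held 0 of the 39 members and SB10-11 held 0.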
